A study of Homo sapiens with 20 samples.

Results

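SOX17, FOXA1, FOXA2, FOXA3, HHEX and the noncoding gene LINC00261 were followed through Activin-driven endoderm differentiation of human embryonic stem cells with and without the long noncoding RNA gene DIGIT. These 6 genes were chosen by name as endoderm transcription factors and the noncoding gene beside FOXA2. They are 6 of the 54435 features in the count files and 6 of the 16792 that passed the filter on low counts, so every one of them was tested. The RNA-seq libraries hold poly(A) RNA of H1, an established line of human embryonic stem cells, which was wild type (WT) or 1 of 2 DIGIT knockout lines, KO1 and KO2. Each was sampled at day 0, undifferentiated in mTeSR1 medium without feeder cells, and at day 4 in RPMI with B27 supplement and 50 ng/ml Activin A, a TGF-beta family ligand that drives these cells towards endoderm. With 2 libraries a group there were 6 groups and 12 libraries. Each knockout is a single line, and the labels do not say whether the 2 libraries of a group are separate cultures, so p-values measure only the spread between libraries, which may be technical. DIGIT itself was not analysed here, so the labels alone give the genotype.

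SOX17, an SRY-box factor of the SOX F group, and the forkhead factors FOXA1, FOXA2 and FOXA3 are core regulators of definitive endoderm, the germ layer that forms gut, liver and pancreas. Nodal, which Activin mimics in culture, signals through SMAD2 and SMAD3, which act with the forkhead factor FOXH1 and with EOMES to switch on SOX17 and FOXA2. The FOXA proteins can bind their sites in closed chromatin and are known as pioneer factors. HHEX is a homeobox repressor that works with Groucho/TLE corepressors and marks anterior endoderm, the source of liver and thyroid. LINC00261 is a long noncoding RNA transcribed from the region next to FOXA2 and appears with it in endoderm.

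Library totals ran from 9942016 to 21394547 counts, and a floor of 3 counts, below which a gene cannot be told from absent, lay between 0.133 and 0.293 CPM. CPM are counts scaled to a common library total after TMM normalization, and values with ± are means and SDs of 2 libraries. The 2 KO1 day 0 libraries stood apart from each other: a chi-square comparison of the pair gave 22.0 per gene, against 1.91 to 3.94 for the remaining pairs. That value grows with depth, which was greatest for this pair, and does not show which library is the odd one. Replicate 2 is named below as the one that stands apart for another reason. Kept alone for its group, it gave far more features that differed from the other lines at day 0 than replicate 1 did. Adjusted p-values are from edgeR's quasi-likelihood test with Benjamini-Hochberg adjustment over all 16792 features, and a gene is called when its adjusted p is under 0.05.

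Promoter sequence is set beside the values because several of the 6 genes rose together. RefSeq promoters (GRCh38.p14, a build other than the hg19 of the counts) matched 4 of the 6 genes, FOXA1, FOXA3, HHEX and LINC00261. SOX17 and FOXA2 were not matched. The 250 bases before the start of LINC00261 (chr20:22578643-22578892, minus strand), HHEX (chr10:92689705-92689954, plus strand) and FOXA3 (chr19:45864076-45864325, plus strand) are shown 5′ to 3′ because LINC00261 and HHEX rose strongly by day 4 and FOXA3 changed little. Capitals mark every match on either strand to 7 motifs: the forkhead motif (TGTTTAC), the FOXH1 motif (TGTNNATT), the SMAD box (CAGAC), the SOX motif (ACAATG), the GATA motif (AGATAA), the TATA box (TATAAA) and the CCAAT box (CCAAT).
LINC00261: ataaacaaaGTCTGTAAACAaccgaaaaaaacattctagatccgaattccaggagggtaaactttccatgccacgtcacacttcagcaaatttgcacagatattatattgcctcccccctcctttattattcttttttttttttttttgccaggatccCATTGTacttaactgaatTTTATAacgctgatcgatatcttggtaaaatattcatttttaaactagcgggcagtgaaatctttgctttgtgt
HHEX: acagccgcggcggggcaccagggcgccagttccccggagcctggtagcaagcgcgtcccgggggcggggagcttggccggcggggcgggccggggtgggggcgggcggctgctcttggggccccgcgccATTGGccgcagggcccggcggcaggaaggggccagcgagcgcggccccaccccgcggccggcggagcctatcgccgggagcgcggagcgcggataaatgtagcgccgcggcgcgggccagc
FOXA3: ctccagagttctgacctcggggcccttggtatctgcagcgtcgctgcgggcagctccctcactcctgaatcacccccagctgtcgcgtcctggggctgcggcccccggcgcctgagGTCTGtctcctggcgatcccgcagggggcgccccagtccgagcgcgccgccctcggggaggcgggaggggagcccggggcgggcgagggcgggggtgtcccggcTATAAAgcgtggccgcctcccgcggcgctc

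The LINC00261 window was poor in G and C, at 34.8%, with 6 CpG dinucleotides, and 5.27% of the 35116 promoters in the table had a lower GC content. It was the only window of the 4 with a forkhead match, read as GTAAACA from base 237 before the start, and this overlapped by 1 base a SMAD box match, GTCTG, from base 241. It also held a SOX match, CATTGT, from base 92 and a TATA box match, TTTATA, from base 74. Both were on the strand opposite to the one shown, so this TATA box match is reversed relative to the gene. A forkhead match occurred in 2.98% of all promoters of that length, a SMAD box in 38%, a SOX match in 9.29% and a TATA box in 10.7%. The HHEX window had 81.2% GC and 38 CpG and held 1 CCAAT box match, found in 32% of promoters. FOXA3 had 75.2% GC and 28 CpG with a SMAD box match and a TATA box match, the latter on the strand shown from base 30. FOXA1 had 67.2% GC and 26 CpG with none of the 7 motifs. The median promoter had 58% GC and 11 CpG. A match describes letters only, and no binding at these windows was analysed here.

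In undifferentiated cells 5 of the 6 genes were below 4 CPM in every library, and none differed between lines by the test. SOX17 had 0.580 and 0.353 CPM in the WT libraries, 0.933 and 0.711 in KO1 and 1.03 and 0.196 in KO2. FOXA2, the FOXA gene most closely tied to early endoderm, had 1.74 and 1.91 CPM in WT, against 1.65 and 2.09 in KO1 and 2.15 and 2.25 in KO2. FOXA1 had 1.64 and 2.96 CPM in WT, against 2.74 and 2.80 in KO1 and 3.84 and 1.86 in KO2. Both KO1 libraries lay above both WT libraries for SOX17 and HHEX, an order found in 15.4% of all features, and both KO2 libraries above the others for FOXA2, as in 4.78% of all features. LINC00261 had 3 and 2 counts in the WT libraries, 0 and 1 in KO1 and 3 and 1 in KO2, so its day 0 level was at or under the floor of 3 counts in all 6 libraries. FOXA3 was already expressed before differentiation, at 25.7 and 21.2 CPM in WT, against 21.4 and 24.9 in KO1 and 27.4 and 23.0 in KO2.

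HHEX was the exception at day 0 in 1 library. It had 0.580 and 0.706 CPM in WT and 0.655 and 0.880 in KO2, but 1.04 and 3.02 in KO1, where the higher value belongs to replicate 2, the library that stands apart. The fitted difference of KO1 from WT was 1.68 on the log2 scale (SE 0.47, adjusted p = 0.254), which was not called. It was called without KO1 day 0 replicate 1 (log2 2.20, adjusted p = 7.27e-05), when replicate 2 alone stood for the group. That fit has no spread of its own for KO1 at day 0: it assumes that the lone library, the one that stands apart, varies like the other groups, and it called 3787 of all features against 40 with both libraries. At day 0 the edgeR test called 0 of the 6 genes between KO1 and WT, 0 between KO2 and WT and 0 between KO2 and KO1, where it called 0.238%, 0.143% and 0.0119% of all features in either direction. At an unadjusted p under 0.05 there were 2, 0 and 2 genes, and DESeq2 also called 0, 0 and 0. Both times the 2 genes were HHEX and LINC00261, the latter on 5 or fewer counts a group. In the same fit without KO1 day 0 replicate 1, with that limit, HHEX passed between KO2 and KO1 (log2 −1.97, adjusted p = 0.000418), as did 2746 of all features against 2.

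**Figure D1:**
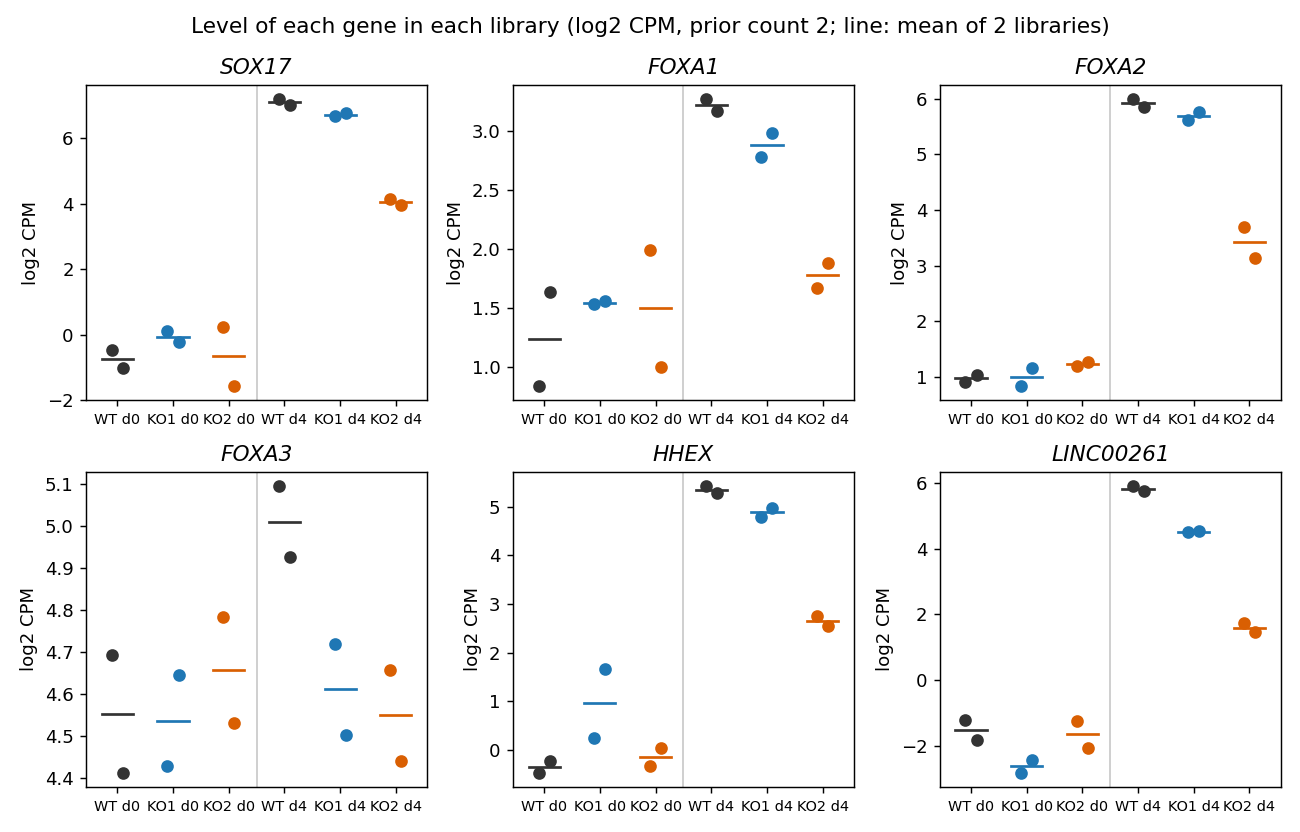
Level of each of the 6 genes in each library, as log2 CPM with a prior count of 2; points are libraries, lines the mean of 2, with day 0 left and day 4 right of the grey line. Each panel has its own scale. SOX17, FOXA2, HHEX and LINC00261 rose in all 3 lines and were lowest at day 4 in KO2, while the FOXA3 panel spans only 21.2 to 34.1 CPM.

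By day 4 all 6 genes had risen in WT cells, where 24.3% of all features rose. SOX17 reached 147 and 129 CPM in the 2 WT libraries, from 0.467 ± 0.161 at day 0 (log2 8.23, SE 0.24, adjusted p = 1.41e-12). LINC00261 reached 60.0 and 54.0 CPM, or 788 and 839 counts, a 278-fold rise over its 5 day 0 counts with an exact 95% counting interval of 119 to 858. HHEX reached 43.0 and 38.8 CPM (log2 5.95, SE 0.32), and FOXA2 reached 63.3 and 57.7 CPM (log2 5.04, SE 0.20). For these 4 genes every WT day 4 library was more than 10 times as high as every WT day 0 library, which held for 0.965% of all features.

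The other FOXA genes moved less. FOXA1, which acts with FOXA2 in the later liver and lung lineages, reached 9.52 and 8.88 CPM in WT (log2 1.95, SE 0.27, adjusted p = 2.41e-05). FOXA3, known mainly from gut and liver, went from 23.5 ± 3.23 to 34.1 and 30.3 CPM in WT (log2 0.46, SE 0.14, adjusted p = 0.0117). Its day 0 and day 4 libraries did not overlap, but the call was lost without WT day 0 replicate 2 (log2 0.34, adjusted p = 0.130) or WT day 4 replicate 1 (log2 0.39, adjusted p = 0.0856). The 3 FOXA paralogs thus ranged from a 32.8-fold to a 1.39-fold count ratio between days in WT.

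In KO1 cells 5 of the 6 genes rose between the days, and in KO2 cells 4 did, where 29.1% and 25.0% of all features rose. In KO1 the log2 rise was 7.02 for SOX17 (SE 0.20), 4.76 for FOXA2 (SE 0.18), 3.80 for HHEX (SE 0.25) and 1.39 for FOXA1 (SE 0.25). LINC00261 rose in KO1 from 1 count to 599, a 933-fold ratio that rests on that 1 count, with a counting interval of 167 to 36906. FOXA3 in KO1 differed between days by 0.07 (SE 0.14, adjusted p = 0.691).

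In KO2 the log2 rise was 4.70 for SOX17 (SE 0.29), 2.98 for HHEX (SE 0.42) and 2.27 for FOXA2 (SE 0.23). LINC00261 rose 15.1-fold over 4 counts, with a counting interval of 5.65 to 56.6. FOXA1 was not called in KO2 (log2 0.21, SE 0.31, adjusted p = 0.595), and its day 4 libraries at 3.05 and 3.54 CPM lay between the day 0 libraries. FOXA3 was not called in KO2 either (log2 −0.11, SE 0.14, adjusted p = 0.525). SOX17, FOXA2, HHEX and LINC00261 thus rose in all 3 lines.

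At day 4 each of the 6 genes was lowest in a KO2 library and highest in a WT library, an order found in 17.9% of all features. For 5 of them, all but FOXA3, both KO1 libraries lay between WT and KO2 without overlap, as in 7.34% of all features. KO1 and KO2 are compared with the same 2 WT libraries, so these comparisons are not independent of each other. Fewer endoderm cells in the culture and less RNA of a gene per cell cannot be told apart in bulk RNA.

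SOX17 stood at 147 and 129 CPM in the WT libraries, 102 and 110 in those of KO1 and 17.6 and 15.4 in those of KO2. The 3 lines did not overlap, with KO1 at 77.1% and KO2 at 11.9% of the WT mean. KO2 was far lower than WT (log2 −3.07, SE 0.14, adjusted p = 1.20e-09). KO1 was lower than WT by a small margin (log2 −0.37, SE 0.12, adjusted p = 0.0413). That KO1 call was lost without WT day 4 replicate 1 (adjusted p = 0.281) or replicate 2 (0.0661), without KO1 day 4 replicate 1 (0.267) or replicate 2 (0.122), and without KO2 day 4 replicate 1 (0.0529) or replicate 2 (0.0596).

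FOXA2 had 63.3 and 57.7 CPM in WT, against 48.7 and 54.1 in KO1 and 12.8 and 8.62 in KO2. KO2 was at 17.7% of the WT mean (log2 −2.51, SE 0.15, adjusted p = 1.39e-08). KO1 was at 84.9%, and although its libraries lay below both WT libraries, the difference was not called (log2 −0.23, SE 0.13, adjusted p = 0.236). In a fit of the KO1 and WT day 4 libraries alone it was called (log2 −0.25, adjusted p = 0.0276).

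LINC00261, the neighbour of FOXA2, was the gene of the 6 with the largest fitted difference in both knockout lines. It had 60.0 and 54.0 CPM in WT, against 22.7 and 23.1 in KO1 and 3.21 and 2.61 in KO2. KO1 was at 40.1% of the WT mean (log2 −1.32, SE 0.13, adjusted p = 5.10e-06) and KO2 at 5.10% (log2 −4.30, SE 0.16, adjusted p = 1.68e-10). The call of LINC00261 in KO1 held in all 19 alternatives tried, with a highest adjusted p of 0.000376.

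HHEX had 43.0 and 38.8 CPM in WT, against 27.6 and 31.5 in KO1 and 6.57 and 5.68 in KO2. This repressor was at 15.0% of the WT mean in KO2 (log2 −2.74, SE 0.22, adjusted p = 3.91e-07). In KO1 it was at 72.3% and not called (log2 −0.46, SE 0.19, adjusted p = 0.0976). It was called there when KO1 day 0 replicate 1 (adjusted p = 0.000666) or replicate 2 (0.000693) was left out of the joint fit, and in 2 further alternatives.

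FOXA1 had 9.52 and 8.88 CPM in WT, against 6.72 and 7.76 in KO1 and 3.05 and 3.54 in KO2. KO2 was at 35.8% of the WT mean (log2 −1.47, SE 0.25, adjusted p = 0.000459) and KO1 at 78.7%, which was not called (log2 −0.34, SE 0.22, adjusted p = 0.329). FOXA3 had 34.1 and 30.3 CPM in WT, against 26.2 and 22.5 in KO1 and 25.1 and 21.6 in KO2. Here the 2 knockout lines overlapped with each other and with the day 0 libraries. FOXA3 was called in KO2 (log2 −0.46, SE 0.14, adjusted p = 0.0198) and missed the threshold in KO1 (log2 −0.40, SE 0.14, adjusted p = 0.0512). The KO2 call was lost without WT day 4 replicate 1 (adjusted p = 0.143) or KO2 day 4 replicate 2 (0.189), and the KO1 difference was called in 10 of 19 alternatives. Over those 19 its adjusted p ran from 0.00672 to 0.320.

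**Figure D2:**
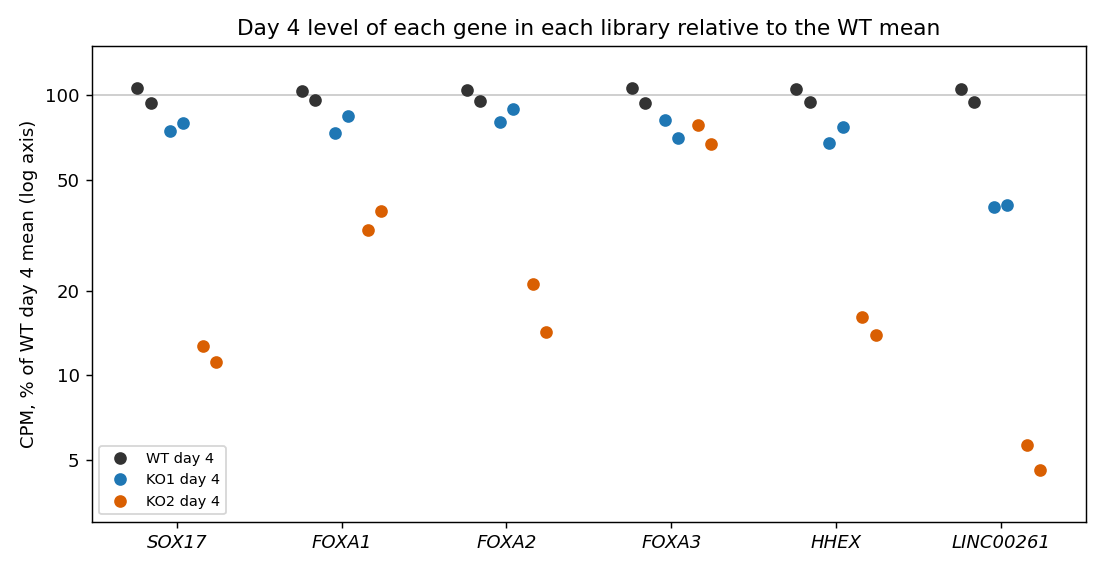
Day 4 level of each gene in each library as a percentage of the WT day 4 mean CPM, on a log axis; points are libraries. KO2 lies at 5.10% (LINC00261) to 72.6% (FOXA3) of WT, and KO1 at 40.1% (LINC00261) to 84.9% (FOXA2).

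Counted over the 6 genes, KO1 was lower than WT in 2 and higher in 0, where 9.42% of all features were lower and 10.5% higher. KO2 was lower than WT in 6 and higher in 0, where 14.5% of all features were lower and 13.5% higher. The mean of the 2 knockout lines was lower than WT in 6, against 12.6% of all features. For that mean the FOXA1 call was lost without WT day 4 replicate 1 (adjusted p = 0.0521). The FOXA3 call was lost without WT day 4 replicate 1 (adjusted p = 0.161), KO1 day 4 replicate 2 (0.0587) or KO2 day 4 replicate 2 (0.0578). The count of 6 became 0 when the 4 knockout libraries formed 1 group and the gap between KO1 and KO2 counted as spread. The adjusted p was then 0.0585 for LINC00261, 0.0589 for FOXA3, 0.183 for FOXA1, 0.206 for HHEX, 0.272 for SOX17 and 0.291 for FOXA2.

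The 2 knockout lines differed from each other at day 4 in 5 of the 6 genes, all lower in KO2, where 14.3% of all features were lower in KO2. The log2 difference of KO2 from KO1 was −2.98 for LINC00261 (SE 0.17), −2.69 for SOX17 (SE 0.14), −2.28 for HHEX (SE 0.22) and −2.27 for FOXA2 (SE 0.15). FOXA1 was also lower in KO2 (log2 −1.13, SE 0.26, adjusted p = 0.00440). FOXA3 did not pass the test between the lines (log2 −0.06, SE 0.14, adjusted p = 0.798).

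**Figure D3:**
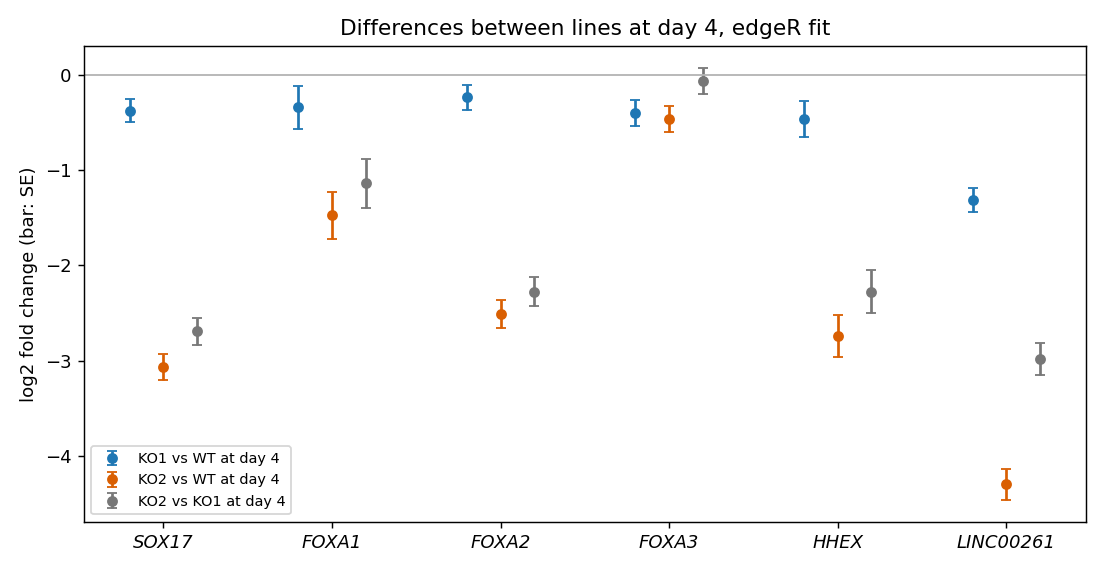
Log2 fold changes between lines at day 4 from the edgeR fit, with bars of 1 SE, for the 6 genes; KO1 against WT in blue, KO2 against WT in orange, KO2 against KO1 in grey. The KO2 difference from WT runs from −4.30 (LINC00261) to −0.46 (FOXA3), and the KO1 difference from −1.32 (LINC00261) to −0.23 (FOXA2).

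The change from day 0 to day 4 was also compared between lines as an interaction term. The rise in KO2 was smaller than in WT for 5 genes, SOX17, FOXA1, FOXA2, HHEX and LINC00261, where 7.50% of all features had a lower change. The rise in KO1 was smaller than in WT for 1 gene, HHEX (log2 −2.14, SE 0.51, adjusted p = 0.0159), where 4.81% of features had a lower change. Without KO1 day 0 replicate 2, the library with the high HHEX level before differentiation, that difference was −1.14 (adjusted p = 0.110). It was also lost without WT day 0 replicate 1 (adjusted p = 0.0745) or replicate 2 (0.0956), or KO1 day 4 replicate 1 (0.0527). The rise in KO2 was smaller than in KO1 for SOX17, FOXA2 and LINC00261, where 6.52% of features had a lower change. FOXA2 was the steadiest of these: its KO2 difference from WT in the change was −2.77 (SE 0.36, adjusted p = 0.000174). The SOX17, HHEX and LINC00261 values rest on few day 0 counts, and the SOX17 value was −1.92 (adjusted p = 0.402) without KO2 day 0 replicate 1, which held 11 of the 13 SOX17 counts of that group. Without that library the KO2 difference from WT was also lost for FOXA1 (−1.13, adjusted p = 0.167), HHEX (−3.18, adjusted p = 0.0602) and LINC00261 (−3.31, adjusted p = 0.348). The KO2 difference from KO1 was then lost for SOX17 (−0.69, adjusted p = 0.815) and LINC00261 (−4.66, adjusted p = 0.236).

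Because LINC00261 lies beside FOXA2, the 2 genes were set against each other within each library. LINC00261 had 0.948 and 0.936 counts per FOXA2 count in the WT day 4 libraries, 0.465 and 0.427 in KO1 and 0.250 and 0.302 in KO2. These values did not overlap between lines, and in both knockout lines LINC00261 was lower relative to FOXA2 than in WT. How many other gene pairs show such an order was not counted. With 2 libraries against 2 an exact two-sided permutation test cannot give a p below 0.333, and none is given. In KO1 the ratio was under 0.5 although FOXA2 itself was at 84.9% of WT.

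The other 3 ratios were not lower in KO2 than in WT. HHEX had 0.293 and 0.301 counts per SOX17 count in WT, against 0.269 and 0.286 in KO1 and 0.374 and 0.370 in KO2. FOXA2 had 0.431 and 0.448 counts per SOX17 count in WT, against 0.476 and 0.492 in KO1 and 0.731 and 0.561 in KO2. FOXA1 had 0.150 and 0.154 counts per FOXA2 count in WT, against 0.138 and 0.144 in KO1 and 0.238 and 0.411 in KO2. All 3 of these ratios were highest in the KO2 libraries, and FOXA1 per FOXA2 differed most between the KO2 replicates.

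**Figure D4:**
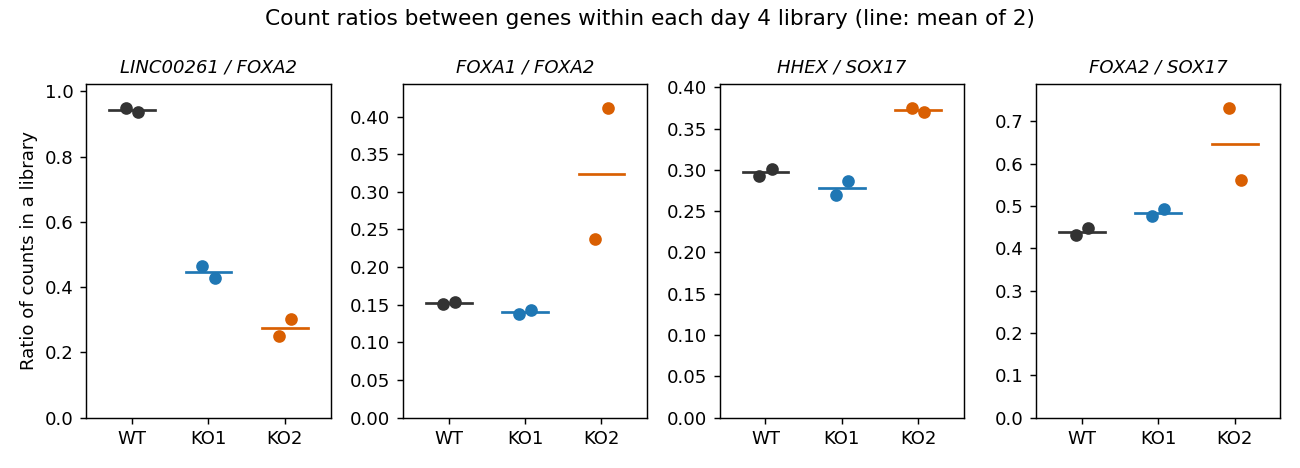
Ratio of the counts of 2 genes within each day 4 library, for 4 pairs; points are libraries, lines the mean of 2, and each axis starts at 0. LINC00261 per FOXA2 lies at 0.936 to 0.948 in WT, 0.427 to 0.465 in KO1 and 0.250 to 0.302 in KO2, and the other ratios are highest in KO2.

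Genes around the 6 on the chromosome, the nearest 2 tested on each side, numbered 20 after the 6 genes were set aside. In WT 6 of them rose and 6 fell between the days, where 24.3% of all features rose and 25.4% fell. KO1 was higher than WT in 1 and lower in 3, where 10.5% of all features were higher and 9.42% lower. KO2 was higher in 3 and lower in 3, a share near the 13.5% and 14.5% of all features. CYP26A1, a retinoic acid-degrading enzyme 2 tested genes from HHEX, went from 5.56 ± 0.616 to 601 ± 60.8 CPM in WT and had 346 ± 5.61 in KO1 and 85.9 ± 13.8 in KO2. It was lower than WT in KO1 (log2 −0.80, adjusted p = 5.31e-05) and KO2 (log2 −2.81, adjusted p = 1.68e-10). THBD, the thrombomodulin gene and the next tested gene after FOXA2, rose to 6.38 ± 0.562 CPM in WT and was lower in KO2, at 1.30 ± 0.246 (log2 −2.28, adjusted p = 8.85e-05). EXOC6, an exocyst gene between HHEX and CYP26A1, rose in WT (log2 1.18) without a called difference in KO1 (log2 −0.36, adjusted p = 0.0795) or KO2 (log2 −0.14, adjusted p = 0.474). XRN2, an exoribonuclease gene on the other side of LINC00261, was slightly higher in KO2 (log2 0.25, adjusted p = 0.0163), opposite to its neighbour.

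The closest SOX relatives of SOX17 are SOX7 and SOX18, the rest of the SOX F group. SOX7 rose from 3.13 ± 0.230 to 8.32 ± 1.43 CPM in WT and had 6.57 ± 0.141 in KO1 and 2.87 ± 0.200 in KO2 at day 4. SOX18 rose from 0.731 ± 0.335 to 6.09 ± 0.330 CPM in WT and had 7.97 ± 0.295 in KO1 and 1.66 ± 0.368 in KO2. Both were lower than WT in KO2 (log2 −1.54 and −1.88, adjusted p = 3.04e-05 and 0.000155), and neither was called in KO1. Among 17 tested SOX genes other than SOX17, KO2 was higher than WT in 6 and lower in 5, where 13.5% of all features were higher and 14.5% lower, with a median log2 difference of −0.05 against 0.01 over all features. SOX2, the stem cell SOX factor, was higher in KO2 (log2 0.58) and lower in KO1 (log2 −0.52).

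Forkhead genes outside the FOXA group moved in both directions. Of 34 tested, 10 rose and 9 fell in WT, where 24.3% of all features rose and 25.4% fell. KO2 was higher than WT in 7 and lower in 8 (13.5% and 14.5% of all features), with a median of −0.06. KO1 was higher in 4 and lower in 3 (10.5% and 9.42% of all features), with a median of 0.12. FOXH1, the SMAD partner upstream of SOX17 and FOXA2, rose from 80.0 ± 8.24 to 118 ± 9.09 CPM in WT. FOXH1 had 109 ± 1.96 CPM in KO1 and 86.2 ± 4.18 in KO2, and the KO2 difference was called (log2 −0.46, SE 0.09, adjusted p = 0.00151).

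The Nodal and Activin list held 12 ligands, receptors, SMADs and feedback genes, of which 9 rose and 0 fell in WT, where 24.3% of all features rose and 25.4% fell. In KO1, 2 members were higher and 3 lower than WT (10.5% and 9.42% of all features), with a median of −0.04. In KO2, 1 member was higher and 5 lower than WT (13.5% and 14.5% of all features), with a median of −0.19. NODAL, the ligand gene, was higher than WT at day 4 in both knockout lines, at 461 ± 9.62 CPM in KO1 and 399 ± 23.6 in KO2 against 308 ± 33.2. LEFTY1, a Nodal antagonist and feedback target, was lower in both, at 142 ± 24.9 and 131 ± 3.65 CPM against 381 ± 48.8. LEFTY1 and LEFTY2 are close paralogs, and how reads shared between them were counted is not given in the sources used here.

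Of 16 other endoderm transcription factors listed and tested, 11 rose and 3 fell in WT (24.3% and 25.4% of all features). KO2 was higher than WT in 1 and lower in 12 (13.5% and 14.5% of all features), with a median of −1.36. KO1 was higher in 4 and lower in 5 (10.5% and 9.42% of all features), with a median of −0.20. EOMES, the T-box factor that acts upstream of SOX17, had 424 ± 89.3 CPM in WT, against 499 ± 11.0 in KO1 and 183 ± 13.4 in KO2. GATA6, a zinc finger factor of endoderm, had 186 ± 17.1 CPM in WT, against 175 ± 0.912 in KO1 and 27.6 ± 4.88 in KO2. Both were lower in KO2 (log2 −1.21 and −2.75) and not called in KO1. LHX1, a LIM homeobox factor, and MIXL1, a mesendoderm homeobox factor, were higher than WT in KO1 (log2 0.52 and 1.29) and lower in KO2 (log2 −2.85 and −1.03). OTX2 was lower than WT in KO1 (log2 −0.43, adjusted p = 0.00497) and KO2 (log2 −1.50, adjusted p = 4.00e-08).

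**Figure D5:**
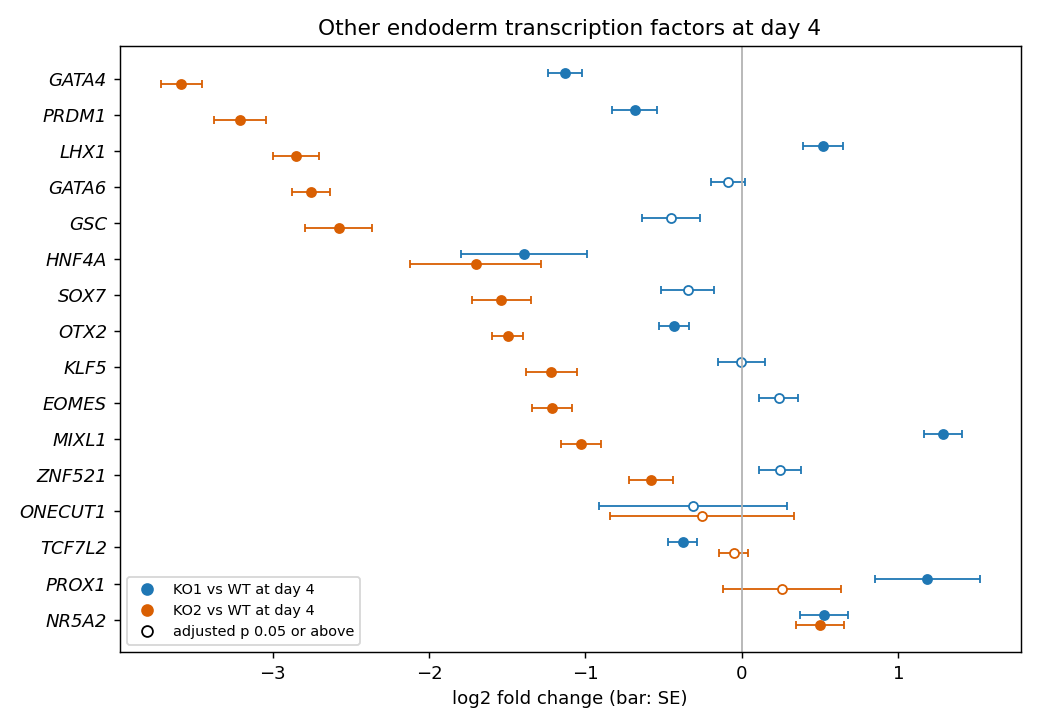
Log2 fold changes from WT at day 4, with bars of 1 SE, for the 16 listed and tested endoderm transcription factors other than the 6 genes, ordered by the KO2 value; filled points have an adjusted p under 0.05. KO2 is lower in 12, from GATA4 at −3.58, and KO1 is lower in 5 and higher in 4.

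Surface and secreted genes of definitive endoderm were listed as well. Of 16 tested, 15 rose in WT and 0 fell (24.3% and 25.4% of all features). KO2 was lower than WT in 13 and higher in 1 (14.5% and 13.5% of all features), and KO1 was lower in 10 and higher in 3 (9.42% and 10.5% of all features). The list medians were −2.45 in KO2 and −0.41 in KO1. FGF17, a secreted growth factor gene, had 484 ± 50.0 CPM in WT, against 341 ± 8.96 in KO1 and 48.4 ± 9.03 in KO2. CER1, a secreted Nodal and BMP antagonist, had 865 ± 143 CPM in KO2 against 4027 ± 221 in WT, and 4485 ± 64.8 in KO1, which was not called.

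Corepressors and later targets were counted in the same way, against 10.5% of all features higher and 9.42% lower than WT in KO1 and 13.5% higher and 14.5% lower in KO2. Of 6 listed Groucho/TLE family and HHEX-related repressor genes, AES and TLE2 were lower than WT in KO1 (log2 −0.75 and −0.48) and KO2 (log2 −0.88 and −0.76), and 0 were higher. Of 20 liver and foregut genes downstream of FOXA or HHEX, 7 passed the filter, with 2 higher and 2 lower than WT in KO1 and 1 higher and 2 lower in KO2. The 2 lower genes were APOA1 and APOA2 in both lines. APOA2, an apolipoprotein gene, had 6.21 ± 0.492 CPM in WT, against 0.904 ± 0.307 in KO1 and 0.114 ± 0.0661 in KO2. APOA1, another apolipoprotein gene, had 3.76 ± 0.497 CPM in WT, against 0.301 ± 0.0600 in KO1 and 0.180 ± 0.0285 in KO2. The KO2 values rest on 3 counts of APOA2 and 5 of APOA1 over 2 libraries, and APOA1 had 8 counts in KO1. These lie around the floor of 3 counts a library. CEBPA, a liver transcription factor gene, was higher than WT in both lines (log2 1.06 in KO1 and 1.18 in KO2). AFP was the other gene higher in KO1 (log2 1.49, adjusted p = 0.0146), at 11.5 ± 0.809 CPM against 4.00 ± 1.99 in WT.

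Genes whose log2 CPM followed each of the 6 most closely over the 12 libraries, by Pearson's r among 12419 named features, are given as a description. The points share the day 0 to day 4 difference and the lines. RET (r = 0.995) followed SOX17, LRIG3 (0.997) FOXA2, RAI1 (0.966) FOXA1, MAP1LC3A (0.920) FOXA3, FXR2 (0.991) HHEX and ROR2 (0.994) LINC00261. GATA4, an endoderm zinc finger factor, was among the 4 closest to LINC00261 (0.991), and at day 4 its mean CPM was 68.0 (WT), 31.1 (KO1) and 5.69 (KO2). Over the 6 day 4 libraries alone, the 4 closest to SOX17 were ASXL1, FGF17, DLC1 (each 0.999) and MMP14 (0.998). Those closest to HHEX were FGF17 (0.999), ASXL1, SOX17 and ROR2 (each 0.998). For LINC00261 they were COLEC12, GATA4, SLC5A9 and PLCE1 (each 0.999). THBD, the neighbour of FOXA2, was among the 4 closest to FOXA1 (0.997). FOXA3 stood aside: its r with the other 5 genes over the 12 libraries ran from 0.504 (SOX17) to 0.593 (LINC00261), where the other pairs ran from 0.896 to 0.988.

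SOX17, HHEX and the FOXA factors are also used by other cell types, so markers of those were summed in each library. Stem cell markers (5 of 5 measured) summed to 1060 to 1153 CPM in WT, 1168 to 1235 in KO1 and 1702 to 1790 in KO2 at day 4, against 1616 to 1798 over the day 0 libraries. In KO1 the markers did not move together: 1 was higher than WT, 1 lower and 3 not called (10.5% of all features higher, 9.42% lower). ZFP42 was the higher one, at 299 ± 0.719 CPM against 176 ± 25.4 in WT. SOX2 was the lower one, at 77.8 ± 12.3 CPM against 112 ± 8.89. All 5 were higher in KO2 than in WT, where 13.5% of all features were higher. Their part in the lower endoderm genes of KO2 was not tested. Endothelial markers (9 of 9 measured) summed to 151 to 163 CPM in WT, 165 to 172 in KO1 and 132 to 149 in KO2, mostly KDR, which was at 211 ± 8.28 CPM in WT already at day 0. PECAM1 and EMCN were at 0 counts in WT and KO1, and EMCN in KO2.

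Mesoderm markers (8) summed to 2.77 to 4.11, 6.25 to 6.90 and 2.65 to 2.67 CPM in WT, KO1 and KO2 at day 4. At day 0 these sums were 5.15 to 6.19, 4.88 to 7.29 and 4.79 to 5.52 CPM, so the KO1 sum at day 4 lay within its day 0 range. Single markers differed all the same. Of 4 tested, 2 were higher and 0 lower than WT in KO1 at day 4 (10.5% and 9.42% of all features). These were MESP2 (log2 3.23, adjusted p = 0.0104) and HAND1 (log2 2.75, adjusted p = 0.00808), at only 0.740 ± 0.172 and 0.989 ± 0.0582 CPM in KO1. Between days in KO1, 2 rose and 1 fell (29.1% and 29.3% of all features). Extraembryonic endoderm markers (6) summed to 14.6 to 18.8, 21.4 to 22.7 and 13.2 to 13.4 CPM at day 4, with TTR at 0 counts in all 3 lines. At day 0 they summed to 8.42 to 12.1, 6.93 to 9.27 and 7.95 to 8.41 CPM. AFP, at 11.5 ± 0.809 CPM in KO1 and 4.00 ± 1.99 in WT at day 4, was the only one called between these lines. Notochord and floor plate markers (5), a setting where FOXA2 is also expressed, summed to 12.6 to 14.3, 4.74 to 5.98 and 5.13 to 6.35 CPM at day 4, with NOTO at 0 in WT and KO1. Their day 0 sums were 10.8 to 12.6, 7.11 to 8.07 and 6.83 to 8.51 CPM. Neuroectoderm markers (6) summed to 41.5 to 44.5, 36.9 to 40.2 and 35.4 to 36.4 CPM at day 4, against 41.6 to 44.0, 47.5 to 54.1 and 48.3 to 53.9 at day 0. The part of these markers in the results was not tested.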

How the data were processed

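For each of 12 RNA-seq libraries the authors deposited raw read counts per feature. Per the submitters' processing notes, the tools were Bowtie2 2.1.0 and HTSeq 0.6.1 with hg19, and per the labels' protocols the kit was stranded poly(A). The annotation and the counting's strand setting are not stated in the sources used here. No RefSeq gene (GRCh38.p14) overlaps any of the 6 genes, and other features of the count files were not checked for overlap. HTSeq's rows for reads outside features (29.2% to 30.5% of reads), of low quality (19.3% to 22.2%) or ambiguous (1.17% to 1.41%) were left out of totals and tests. Counts were filtered with filterByExpr, scaled by TMM (factors 0.937 to 1.05) and tested in one edgeR quasi-likelihood fit of 6 groups (16792 of 54435 features). SEs were computed as |log2 fold change|/√F. CPM on the log scale used a prior count of 2. Intervals and floors cover counting error only. Replicate numbers were checked for pairing, without a settled answer, and the main fit does not use them.

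The 6 genes and 14 gene lists were chosen with earlier results of these data known. The lists share genes, and 1 listed gene is not reported here. The genes named from a list are mostly called genes of the highest mean CPM, and not every such gene is named. Likeness used features with at least 5 CPM in 1 group. Alternatives were RLE and upper-quartile scaling, DESeq2, 2 other filters, a replicate block, the compared libraries alone, the 4 knockout libraries as 1 group and each library left out. Gene order and promoters come from RefSeq (GRCh38.p14). The 8 ChIP-seq samples were not analysed here. The script that fits the model was tested on simulated data. Software was R 4.3.3, edgeR 4.0.16, limma 3.58.1, DESeq2 1.42.0 and matplotlib 3.10.9.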

Additional observations from a re-analysis of the deposited data

Results flagged for a closer look

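In 9 cases the change from day 0 to day 4 of a gene differed between lines by the interaction term of the edgeR fit. Against WT, the rise in KO2 was smaller for SOX17 (log2 −3.53, SE 0.68, adjusted p = 0.00314), FOXA1 (log2 −1.74, SE 0.42, adjusted p = 0.0118) and FOXA2 (log2 −2.77, SE 0.36, adjusted p = 0.000174). It was also smaller for HHEX (log2 −2.97, SE 0.74, adjusted p = 0.0149) and LINC00261 (log2 −4.21, SE 0.99, adjusted p = 0.0108). The HHEX rise in KO1 was smaller than in WT (log2 −2.14, SE 0.51, adjusted p = 0.0159). Between the knockout lines, the rise in KO2 was smaller than in KO1 for SOX17 (log2 −2.31, SE 0.59, adjusted p = 0.0201), FOXA2 (log2 −2.50, SE 0.34, adjusted p = 0.000257) and LINC00261 (log2 −5.56, SE 1.15, adjusted p = 0.00553). The last of these rests on 1 count in KO1 and 4 counts in KO2 at day 0.

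Without KO2 day 0 replicate 1, the difference of KO2 from WT was −1.92 for SOX17 (adjusted p = 0.402), −1.13 for FOXA1 (0.167), −3.18 for HHEX (0.0602) and −3.31 for LINC00261 (0.348). That of KO2 from KO1 was −0.69 for SOX17 (0.815) and −4.66 for LINC00261 (0.236). The KO2 difference from WT for HHEX was also lost without WT day 0 replicate 2 (adjusted p = 0.0544) or KO2 day 0 replicate 2 (0.129). Both FOXA2 differences held in every alternative run. Some differences that were not called became so when 1 library was left out. For KO2 against KO1 these were FOXA1 without KO1 day 0 replicate 1 (log2 −1.17, adjusted p = 0.0354), KO1 day 0 replicate 2 (log2 −1.20, adjusted p = 0.0388) or KO2 day 0 replicate 2 (log2 −1.60, adjusted p = 0.0236), and HHEX without KO1 day 0 replicate 2 (log2 −1.84, adjusted p = 0.0117). FOXA3 against WT was called in KO1 without KO1 day 0 replicate 1 (log2 −0.52, adjusted p = 0.0325). In KO2 it was called without WT day 0 replicate 1 (log2 −0.73, adjusted p = 0.0487), KO1 day 0 replicate 1 (log2 −0.60, adjusted p = 0.0105) or KO1 day 0 replicate 2 (log2 −0.60, adjusted p = 0.0104).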

How the results depend on the processing

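Of 248 recounts of the 6 genes called, 225 stayed within 1.5 times the reported count and 23 did not. With no filter on low counts, the number called between KO1 and WT at day 4 went from 2 to 4, and between KO1 and WT and between KO2 and KO1 at day 0 from 0 to 1 (HHEX in both). With only the compared libraries in the fit, KO1 against WT at day 4 gave 5. With the 4 knockout libraries as 1 group, the count for their mean went from 6 to 0. With the replicate block, KO1 against WT at day 4 gave 3.

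With 1 library left out, so that the lone library of its group is assumed to vary like the other groups, the number called at day 4 ran from 1 to 4 for KO1 against WT, 5 to 6 for KO2 against WT, 4 to 6 for the knockout mean and 5 to 5 for KO2 against KO1. Between days it ran from 5 to 6 in WT, 5 to 5 in KO1 and 4 to 4 in KO2. At day 0 it ran from 0 to 1 for KO1 against WT and KO2 against KO1 and 0 to 0 for KO2 against WT. For the change between days it ran from 0 to 2 for KO1 against WT, 1 to 6 for KO2 against WT and 1 to 5 for KO2 against KO1.

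Of 1483 log2 fold changes of single genes under alternatives, 1398 kept their direction and their side of the threshold, 63 kept their direction and changed side, and 22 changed direction. Those 22 were called neither before nor after (lowest adjusted p = 0.631). With upper-quartile scaling FOXA3 between days in KO1 was −0.016, from 0.07. The rest came with 1 library left out, when values of both signs were reached. Between days FOXA3 ran from −0.036 to 0.19 in KO1 and from −0.23 to 0.023 in KO2, and FOXA1 in KO2 from −0.21 to 0.83. Between KO2 and KO1 at day 4 FOXA3 ran from −0.17 to 0.049. At day 0 between KO1 and WT, FOXA1 ran from −0.097 to 0.75, FOXA2 from −0.16 to 0.19 and FOXA3 from −0.15 to 0.13. Between KO2 and WT, SOX17 ran from −1.17 to 1.18, FOXA1 from −0.36 to 0.80, FOXA3 from −0.029 to 0.25 and LINC00261 from −1.002 to 0.44. Between KO2 and KO1, SOX17 ran from −2.01 to 0.34, FOXA1 from −0.58 to 0.46 and FOXA3 from −0.015 to 0.24. The KO2 calls against WT at day 4 of SOX17, FOXA1, FOXA2, HHEX and LINC00261 held in all 19 alternatives. Of 6944 list counts, 694 moved by over 1.5 times. The number called among all features moved as well. With only the compared libraries it went from 3336 to 5112 for KO1 against WT at day 4, from 4215 to 6748 for KO2 against KO1 at day 4, from 4011 to 6280 for the knockout mean (1418 with the 4 knockout libraries as 1 group), and from 40 to 12 and 24 to 105 for KO1 and KO2 against WT at day 0. For the change between days it went from 1646 to 853 in KO1 and from 2329 to 4098 in KO2, both against WT. With no filter the day 0 counts were 383 and 113 against WT and 71, from 2, for KO2 against KO1, and DESeq2 gave 38 for KO2 against WT. With 1 library left out it ran at day 4 from 1353 to 5228 for KO1 and 2489 to 6596 for KO2 against WT, 1749 to 6048 for their mean and 2146 to 6120 for KO2 against KO1, at day 0 from 9 to 3787, 2 to 120 and 0 to 2746, and for the change from 607 to 4513, 1210 to 4245 and 893 to 3730, each in the order KO1 against WT, KO2 against WT and KO2 against KO1. Where a value changed, the cause was not tested. Deviations of same-numbered libraries correlated by −0.0403 to 0.155 over 15 pairs of groups, highest between WT and KO1 at day 0. With the replicate block more features were called in most comparisons, such as 3664 from 3336 for KO1 against WT at day 4. These values do not settle whether replicate numbers pair the libraries. Day 0 comparisons of LINC00261, SOX17 and HHEX are limited by depth.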
